A study of Pteromalus puparum with 9 samples.

Results

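The salivary gland duct of the parasitoid wasp Pteromalus puparum was compared with the carcass by bulk RNA sequencing, using the 3 duct libraries and the 3 carcass libraries out of 9 libraries in all. The libraries were grouped by their tissue labels alone, not by any measured value. The comparison itself was chosen with earlier results of these data known. The remaining 3 libraries are of the salivary gland reservoir, and they entered the fit and serve here to show where the duct stands apart from the other gland part. All animals were wild type, all libraries carry the label of 1 batch, and no treatment is given. The labels call the replicates biological. They do not define the carcass further, and they give no sex, age or developmental stage, nor whether a replicate was 1 wasp or a pool. The p-values set differences against the spread of these particular libraries, and how much of it lies between animals is not known.

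Pteromalus puparum develops inside the pupae of butterflies. In insects the salivary, or labial, glands make secretory proteins, and the duct is the epithelial tube through which the secretion leaves the gland. A reservoir holds secretion before it is released. A carcass, by contrast, mixes many tissues, so a difference from it sets 1 organ against an average of others. In such bulk samples fewer cells of a type and less RNA per cell cannot be told apart.

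Values were summed over the transcript models that share an ID stem, the ID without its isoform number, which stands in for a gene. The deposited tables do not pair IDs with gene names, so markers of the gland, muscle, fat body or other tissues could not be checked and the tissue labels are taken as given. Levels are CPM, counts relative to the library total, after TMM scaling, a scaling that sets aside the most extreme features, and they are not corrected for transcript length. A stem was called where edgeR's quasi-likelihood test gave a Benjamini-Hochberg adjusted p below 0.05 and the levels differed at least 2-fold. Total estimated counts ran from 18690598 to 22220312 in the duct and from 20220473 to 22061863 in the carcass. A count of 0 in 1 library allows up to 0.143 to 0.155 CPM in the duct and 0.0899 to 0.125 CPM in the carcass, which covers counting error only. Replicates correlated in log CPM, at 0.948 to 0.957 among duct and 0.916 to 0.939 among carcass libraries, and the biological coefficient of variation was 0.331 among duct libraries and 0.408 among carcass libraries.

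One carcass library stood apart in a way that bears on the comparison. In carcass replicate 1, 81 tested stems had at least 10 CPM and at least 5 times the level of either other carcass library, a pattern found after the values were seen. The same rule picked 11 stems in carcass replicate 2, 5 in carcass replicate 3, and 14, 12 and 2 stems in duct replicates 1 to 3. In reservoir replicates 1 to 3 it picked 17, 8 and 8 stems, with median duct levels of 394, 4.48 and 64.6 CPM. These 81 stems were abundant in the duct: their median level was 116, 123 and 155 CPM in duct replicates 1 to 3. It was 3.08, 1.43 and 0.432 CPM in reservoir replicates 1 to 3, and 38.4, 2.7 and 3.84 CPM in carcass replicates 1 to 3. The duct and carcass replicate 1 were thus high together, while the reservoir and the other carcass libraries were low.

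The rule for those 81 stems used no duct or reservoir library. The filter for tested stems did use them, and a stem low in the other carcass libraries could pass it through the gland libraries. The shares below are thus a description and not a test. The duct mean was at least 10 times the reservoir mean in 64 of them, 79.0%, against 7.5% of all tested stems. The 81 stems held 4.26%, 4.72% and 4.37% of the counts of duct replicates 1 to 3, 0.951%, 0.866% and 0.984% of those of reservoir replicates 1 to 3, and 2.41%, 0.292% and 0.228% of those of carcass replicates 1 to 3. With all libraries 30 of the 81 were called higher in the duct and 51 were not called. Without carcass replicate 1, 80 of the 81 were called higher in the duct and 1 was not. In that fit 16.9% of all tested stems were called higher. That their carcass mean rests on a single library follows from how the stems were chosen, and what that library held was not tested.

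**Figure D1:**
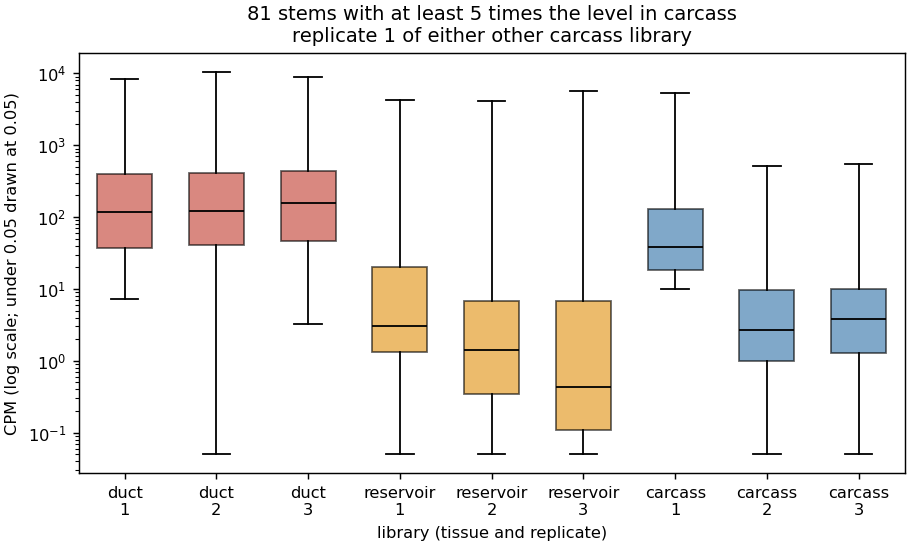
Levels of the 81 stems chosen for their level in carcass replicate 1, in CPM on a log axis, for each of the 9 libraries. Boxes show the median and quartiles and whiskers the full range over stems; the median is 116 to 155 CPM in the duct, 0.432 to 3.08 CPM in the reservoir, 38.4 CPM in carcass replicate 1 and 2.7 and 3.84 CPM in the other carcass libraries.

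The duct differed from the carcass in much of the transcriptome. Of 12143 tested stems 4651 were called, 38.3%, with 1977 higher in the duct (16.3%) and 2674 lower (22.0%). The changes were large: the median called stem was higher in the duct by 2.52 or lower by 3.49 on the log2 scale. At least a 16-fold difference was fitted in 477 of the higher and 1131 of the lower stems, and at least a 64-fold difference in 254 and 545. The duct libraries all lay above the carcass libraries in 1952 of the 1977 higher stems, and all below them in 2658 of the 2674 lower stems. Over all tested stems the groups were apart in this way in 29.0% and 33.8%. The calls were made on these same libraries, so separation of called stems largely follows from the call and is no support for it. Tested against a fold of 2 rather than against no difference, 1369 stems (11.3%) were higher and 2080 (17.1%) lower.

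The 2 directions differed in how abundant their stems were. Stems higher in the duct had a median duct level of 24.0 CPM, with a median of 14.7 CPM in reservoir and 3.93 CPM in carcass libraries. Stems lower in the duct had a median duct level of 0.633 CPM, with a median of 0.722 CPM in reservoir and 8.44 CPM in carcass libraries. The median lower stem was thus under 1 CPM in the duct. No duct count at all was found for 187 of the lower stems, and no carcass count for 66 of the higher stems. A fold change of a stem with few or no counts in 1 tissue depends on the offset used by the fit.

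**Figure D2:**
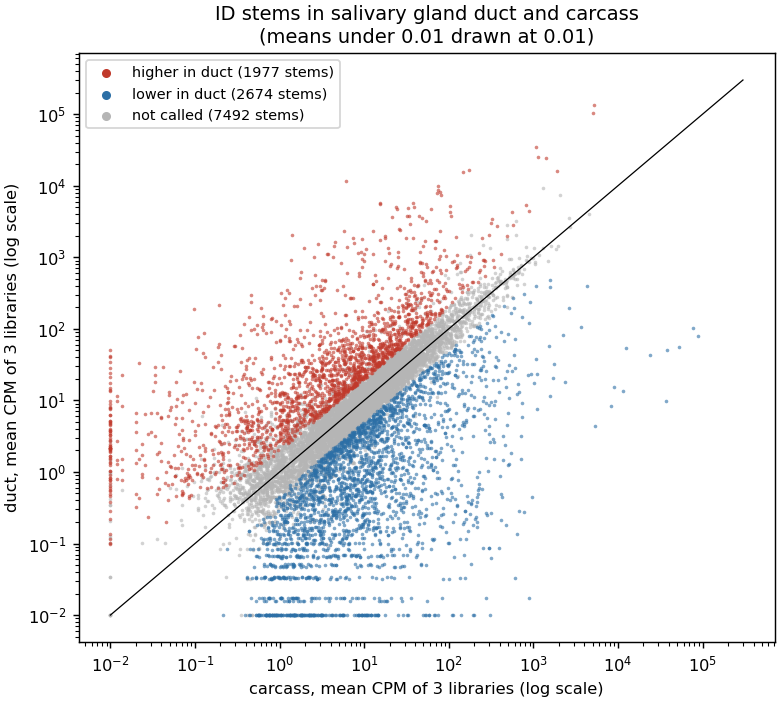
Mean level of each of the 12143 tested stems in the duct, on the vertical axis, against the carcass, on the horizontal axis, in CPM on log axes with 3 libraries per tissue. The line marks equal levels; 1977 stems called higher in the duct lie above it and 2674 called lower lie below it, with stems lacking counts drawn at the edges.

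In terms of counts rather than number of stems, the called stems made up most of each library. The 1977 higher stems made up 72.7% ± 0.86 of the duct libraries, 81.9% ± 0.482 of the reservoir libraries and 6.29% ± 1.3 of the carcass libraries (SD over 3 libraries each). The 2674 lower stems made up 1.47% ± 0.0327 of the duct libraries, 1.51% ± 0.163 of the reservoir libraries and 64.2% ± 5.53 of the carcass libraries. Since these stems were chosen by this contrast, the shares describe the size of the sets and are not a test. Most of it came from few stems: 416 higher stems with at least 100 CPM in the duct held 69.0% ± 0.974 of duct counts and 5.14% ± 1.19 of carcass counts. The 277 lower stems with at least 100 CPM in the carcass held 0.918% ± 0.0266 of duct counts and 59.6% ± 6.15 of carcass counts.

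Calls higher in the duct grew more frequent with level, while the share called lower had no steady trend. At the top the calls leaned to the duct. The levels and calls of these classes rest on TMM scaling alone. Among the 139 stems whose mean reached at least 1000 CPM in the duct or carcass, 88 were higher in the duct (63.3%), 27 were lower (19.4%) and 24 were not called. Between 100 and 1000 CPM 31.7% of 1035 stems were higher and 24.2% lower. Between 10 and 100 CPM the directions were nearly even, at 18.7% and 18.8% of 4997 stems. Between 1 and 10 CPM 10.7% of 5142 stems were higher and 25.1% lower. The test has less precision at low counts, so the smaller share of calls there does not show that fewer stems differ.

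**Figure D3:**
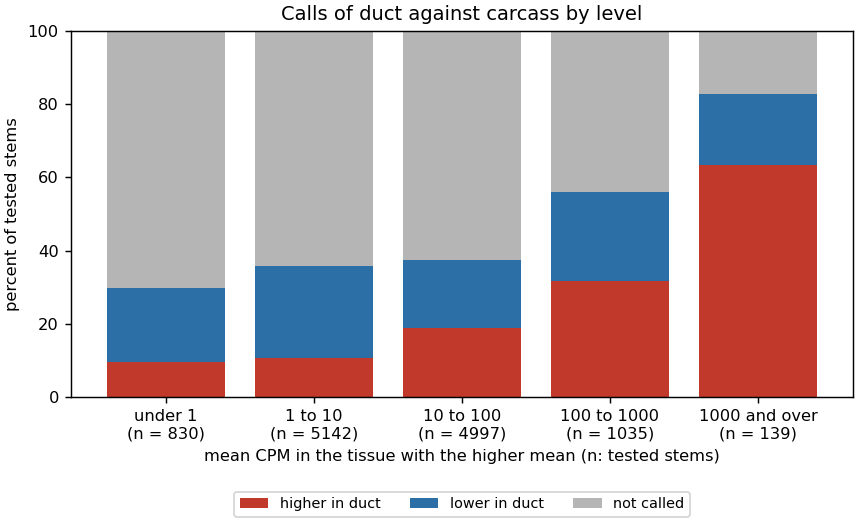
Share of tested stems called higher in the duct, called lower in the duct or not called, in percent, by the mean CPM in whichever of duct and carcass had the higher mean. The share called higher is 9.4% under 1 CPM and 63.3% at 1000 CPM and over.

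A large part of the stems was close in level between duct and carcass. For 3665 stems, 30.2% of those tested, the 95% interval of the log2 fold change lay within -1 to 1, so a difference of 2-fold or more lay outside the interval. Of these 3665 stems, 759 had an edgeR adjusted p below 0.05, so close in level does not mean equal. The 3665 stems had median levels of 14.1 CPM in the duct and 14.0 CPM in the carcass. They took up 15.4% ± 1.03 of duct counts and 20.6% ± 4.23 of carcass counts. This set depends on the scaling: over all tested stems the median log2 fold change shifted by -0.452 with library size as the only scaling.

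The balance of the calls differed between scalings and between tools. Of the called stems 42.5% were higher in the duct with TMM scaling, 28.6% with library size as the only scaling, 39.1% with upper-quartile scaling, 43.1% with DESeq2 and 18.6% with limma on log2(TPM + 1), which also differs in its test and in correcting for length. Under all 5 of these, 935 of the 1977 stems remained called higher (47.3%) and 2305 of the 2674 remained called lower (86.2%). In every fit that left out 1 of the 9 libraries, 1556 higher stems (78.7%) and 2245 lower stems (84.0%) remained called.

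Single stems were named by their fitted fold change, among the 394 higher and 258 lower stems with separate libraries, at least 100 CPM in the higher tissue and at most a 3-fold range within it. Among the rises, PB.5197x and PB.1828x had the largest fitted changes. Their order is not fixed, since PB.1828x had the larger one without carcass replicate 2 (12.07 against 10.72 on the log2 scale). PB.5197x had a level of 11074, 12364 and 11743 CPM in duct replicates 1 to 3, 883, 1695 and 5269 CPM in reservoir replicates 1 to 3, and 9.9, 4.07 and 4.09 CPM in carcass replicates 1 to 3. The duct libraries lay close together and far above every carcass library. The difference between duct and carcass was 10.93 ± 0.97 (log2, SE; edgeR adjusted p = 4.22e-05). Summed over the libraries, 703145 counts in the duct stood against 511 in the carcass. Relative to the TMM-scaled library totals the ratio was 1961 (95% counting interval 1799 to 2143). That interval leaves out the spread between libraries. The 95% interval of the fitted log2 difference, which includes it, was 8.71 to 13.14. PB.5197x comprises 3 models, of which PB.5197.2x carried nearly all counts.

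PB.5197x also differed between the gland parts, with spread in the reservoir. It was higher in the duct than in the reservoir by 2.16 ± 0.66 (log2, SE; edgeR adjusted p = 0.0459), where 10.9% of all tested stems were called higher and 6.24% lower. With an edgeR adjusted p of 0.0533 to 0.156, the stem was not called without duct replicate 1, 2 or 3, reservoir replicate 1 or 2, or carcass replicate 2 or 3. The 2 stems that follow PB.5197x in ID number were likewise called higher in the duct. The first averaged 9981 CPM in duct, 15309 CPM in reservoir and 74.6 CPM in carcass libraries. The second averaged 1355 CPM in duct, 315 CPM in reservoir and 1.94 CPM in carcass libraries. The first was thus highest in the reservoir and the second in the duct, although their numbers adjoin.

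PB.1828x is a stem of 1 model. It stood at 303, 137 and 137 CPM in duct replicates 1 to 3, at 571, 520 and 860 CPM in reservoir replicates 1 to 3, and at 0, 0.21 and 0.0834 CPM in carcass replicates 1 to 3. The carcass levels rest on 9 counts in all, against 11426 in the duct. Relative to the TMM-scaled library totals the ratio was 1810 (95% counting interval 953 to 3959). With the spread between libraries included, the 95% interval of the fitted log2 difference was 8.95 to 12.62. The fitted difference between duct and carcass was 10.79 ± 0.80 (log2, SE; edgeR adjusted p = 1.84e-05), and 12.07 without carcass replicate 2, which held 7 of the 9 counts. Within the gland it was lower in the duct than in the reservoir, by -1.76 ± 0.51 (log2, SE; edgeR adjusted p = 0.0379). With an edgeR adjusted p of 0.0503 to 0.13, this difference was not called without duct replicate 2 or 3, any 1 reservoir library, or carcass replicate 3.

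Among the falls, PB.5085 and PB.5298 had the largest fitted changes. With so few duct counts their order rests on the offset of the fit: the log2 fold change was -15.67 for PB.5085 and -15.26 for PB.5298 with edgeR, but -15.01 and -15.59 with DESeq2. PB.5085, also a stem of 1 model, had no count in any duct library, 0.981, 0.137 and 0.216 CPM in reservoir replicates 1 to 3, and 279, 253 and 381 CPM in carcass replicates 1 to 3. Taking 3 counts over the whole duct group as its limit, PB.5085 was at least 6070-fold lower in the duct than in the carcass (edgeR adjusted p = 4.73e-05). The gland parts differed by few counts, none in duct libraries and 14, 2 and 4 in reservoir replicates 1 to 3, with an edgeR adjusted p of 0.0307. That call was lost, at 0.0503 to 0.0627, without any 1 duct or carcass library. The stem that precedes PB.5085 in ID number was called lower as well, at 0.556 CPM in duct, 2.21 CPM in reservoir and 220 CPM in carcass libraries. The stem before that one was called higher, at 9.25 CPM in duct, 1.06 CPM in reservoir and 0.0998 CPM in carcass libraries. Of the stems that follow PB.5085, the first was at 17.0, 18.6 and 16.6 CPM in duct, reservoir and carcass, and neither it nor the second was called.

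PB.5298, a stem of 6 models, had 1 count in duct replicate 1 and none in duct replicates 2 and 3. It stood at 22.4, 6.49 and 0 CPM in reservoir replicates 1 to 3, and at 843, 690 and 1133 CPM in carcass replicates 1 to 3. Relative to the TMM-scaled library totals, the ratio of carcass to duct counts was 51769 (edgeR adjusted p = 0.000669). Its 95% counting interval of 9291 to 2044800 is set by the single duct count. Without duct replicate 1 no duct count is left, and the stem was at least 12009-fold lower in the duct. The fitted difference between duct and reservoir was -8.73 ± 2.13 (log2, SE; edgeR adjusted p = 0.0194). It was not called without duct replicate 1, 2 or 3, with edgeR adjusted p values of 0.0709 to 0.0812. The reservoir itself ran from no count to 319 counts. Of the 2 stems on either side of PB.5298 in ID number, 1 was called, lower in the duct, at 0.237 CPM in duct, 0.73 CPM in reservoir and 6.78 CPM in carcass libraries, and 3 were not called.

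**Figure D4:**
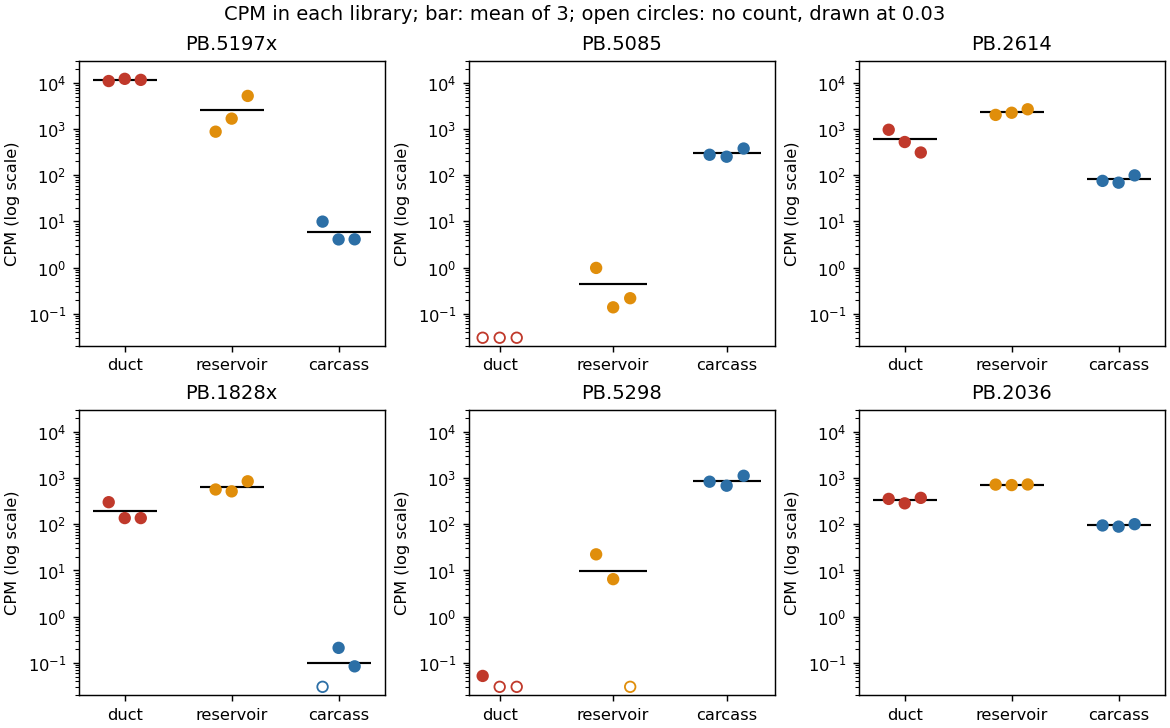
Levels of 6 stems in every library, in CPM on a log axis, by tissue, with a bar at the mean of 3 libraries and open circles for libraries without a count. PB.5197x and PB.1828x were high in duct and reservoir and near or under 10 CPM in carcass; PB.5085 and PB.5298 were at or near 0 in the duct; PB.2614 and PB.2036 were summed over models that moved in opposite directions.

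Few very abundant stems led each tissue, and no stem was among the 10 most abundant of both. The 10 most abundant duct stems were all called higher in the duct, with log2 fold changes of 3.1 to 10.9. Of the counts in duct replicates 1 to 3 they held 37.6%, 39.4% and 38.7%. Their share was 45.1%, 47.6% and 46.3% of the 3 reservoir libraries, and 2.34%, 1.35% and 2.39% of the 3 carcass libraries. The 10 most abundant carcass stems were all called lower in the duct, with log2 fold changes of -11.9 to -7.87. Of the counts in duct replicates 1 to 3 they held 0.0176%, 0.0595% and 0.0475%. Their share was 0.4%, 0.206% and 0.219% of the 3 reservoir libraries, and 44.4%, 40.2% and 53.1% of the 3 carcass libraries. Both lists were chosen by these levels, so only their values in the other tissue add to the choice.

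Most of the leading stems called in each direction were found at low levels in the other tissue. They were chosen as called in this contrast, so a lower level there was a condition of the choice. Only the size of those levels is described here. For the 20 most abundant stems called higher in the duct, the carcass level was a median of 16.9, 5.89 and 10.7 per 1000 of the duct mean in carcass replicates 1 to 3. Single stems ranged from 0.347 to 341 per 1000 over the carcass libraries. Carcass replicate 2 had the lowest level of the 3 in 17 of the 20 stems with TMM scaling and in 13 of the 20 with library size as the only scaling, where the medians were 22.1, 9.93 and 11.9 per 1000. For the 20 most abundant stems called lower in the duct, the duct level was a median of 2.21, 3.84 and 3.33 per 1000 of the carcass mean in duct replicates 1 to 3. Single stems ranged from 0 to 318 per 1000 over the duct libraries. Duct replicate 1 had the lowest level in 17 of the 20 stems, and in 15 of the 20 with library size as the only scaling. This second scaling was added after the data were seen. The part of carried-over tissue in these low levels was not tested.

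The number of stems expressed was smaller in the duct. At least 1 CPM was reached by 9589, 9633 and 9540 stems in duct replicates 1 to 3 and by 10513, 10475 and 10401 stems in carcass replicates 1 to 3. The means were 9587 ± 46.5 in the duct and 10463 ± 57.0 in the carcass (SD, n = 3 each), and the groups did not overlap. The difference in means of -876 stems was -1241 with library size as the only scaling and -2078 with a minimum of 1 TPM in the authors' values. The exact two-sided permutation test gave p = 0.1, the smallest that 3 libraries against 3 allow. The 10 most abundant stems of each library took 38.6% ± 0.956 of its counts in the duct and 45.9% ± 6.6 in the carcass (exact permutation p = 0.1, two-sided). That difference in percentage points, -7.32, was -3.71 without carcass replicate 3. With the authors' TPM it was -2.8 (exact permutation p = 0.7, two-sided). The number of stems that held 50% of the counts was 33, 27 and 29 for the 3 duct libraries, against 21, 47 and 8 for carcass replicates 1 to 3. The carcass libraries lay on both sides of the duct libraries (exact permutation p = 0.7, two-sided). Over these 3 tests the lowest Benjamini-Hochberg adjusted p was 0.15.

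Stems called in 1 direction often had neighbours in ID number called in that direction. IDs carry serial numbers within a class of prefix. The sources used here do not say whether these follow the genome, and neighbours may overlap in 1 locus. Of the 1977 stems higher in the duct, 815 (41.2%) had a tested neighbour on either side, within their class, that was also higher, against 28.9% of all tested stems. Of the 2674 lower stems 1291 (48.3%) had a neighbour that was also lower, against 38.6% of all. For higher stems the same order held in the 4 large classes: 32.2% against 22.3% of all PB stems, 45.6% against 37.6% of PB stems with a trailing x, 62.1% against 50.4% of Ppup stems, and 40.6% against 31.3% of MSTRG stems. For lower stems it held in the classes PB, PB with a trailing x and Ppup, while MSTRG stems were at 48.9% against 49.5%. Of the 10 most abundant duct stems, 6 had a partner among the 10 with the next or previous number. Runs of at least 5 consecutive tested stems called higher numbered 14, with 85 stems in them, the longest of 9 stems. Runs of at least 5 called lower numbered 20, with 110 stems, the longest of 7. These are counts without a test.

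Stems higher in the duct had the lowest median relative transcript length in each level class. The ratio of estimated count to TPM within a library is proportional to a model's effective length, the length open to fragment sampling, and was used here relative to the median tested model. The median relative length was 0.783 for stems higher in the duct, 0.955 for stems lower in the duct and 0.94 for stems not called. At 1000 CPM and over it was 0.398 for the 88 stems higher in the duct, with quartiles of 0.193 and 0.795. It was 0.757 for the 27 stems lower in the duct and 0.674 for the 24 not called. The medians of higher, lower and uncalled stems were closer together at 0.661, 0.77 and 0.714 between 100 and 1000 CPM, and at 0.891, 1.02 and 1.03 between 10 and 100 CPM. Under 1 CPM they were 0.585, 0.867 and 0.925, with a length for only 50 of the 78 higher stems. PB.5197x had a relative length of 0.214 and PB.1828x of 0.0624, while PB.5085 had 0.836 and PB.5298 had 0.835. Longer transcripts give more counts at the same number of molecules, so CPM understates the short stems beside long ones. No test was made of these lengths.

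**Figure D5:**
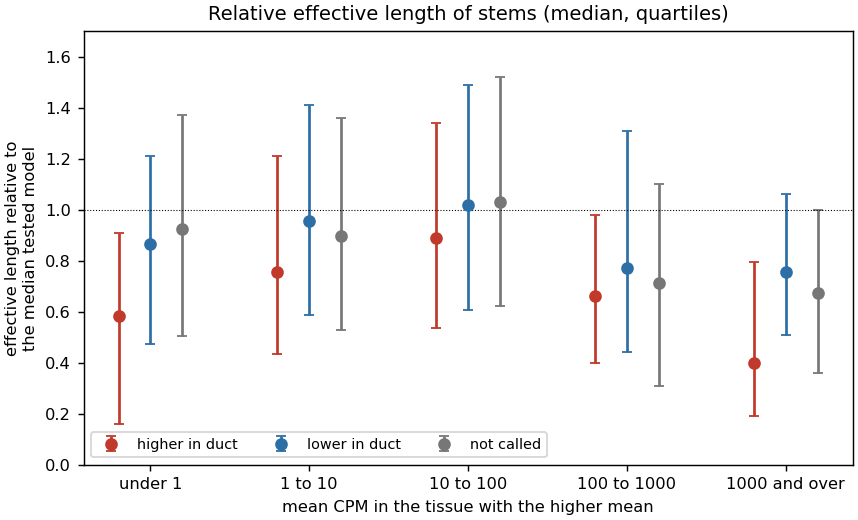
Effective length of stems relative to the median tested model, on the vertical axis, by the mean CPM in whichever of duct and carcass had the higher mean; points are medians and bars are quartiles over stems. Stems higher in the duct have the lowest median in each level class, 0.398 at 1000 CPM and over.

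The classes of IDs contributed unequally. Of 3140 tested PB stems with a trailing x, 22.1% were higher and 17.0% lower in the duct, whereas of 6894 PB stems without it 12.0% were higher and 21.7% lower. Of 766 tested Ppup stems 30.3% were higher and 34.3% lower, but most of the 8274 Ppup stems had too few counts to be tested. Ppup stems made up 33.2% ± 1.29 of the duct libraries, 38.2% ± 0.969 of the reservoir libraries and 26.7% ± 5.19 of the carcass libraries. Of 61 tested stems whose prefix is MSTRGVenom, 5 were higher (8.2%) and 9 lower (14.8%). Of 46 whose prefix is MSTRGCarcass, 2 were higher (4.35%) and 15 lower (32.6%). Over all tested stems 16.3% were higher and 22.0% lower. The sources used here do not say what the prefixes stand for. MSTRGCarcass stems held 0.0434% ± 0.00435 of duct counts and 0.101% ± 0.00746 of carcass counts. MSTRGVenom stems held 0.139% ± 0.0125 of duct counts and 0.178% ± 0.0359 of carcass counts.

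A smaller share of single models than of stems was called, and models varied more between libraries. Over models the biological coefficient of variation was 0.771, and over stems it was 0.367. Of 21287 tested models 5650 were called (26.5%), with 2455 higher in the duct (11.5%) and 3195 lower (15.0%). Higher models made up 43.5% of the calls with TMM scaling, 31.9% with library size as the only scaling and 20.5% with limma on log2(TPM + 1). Against a fold of 2, 7.36% of models were higher and 10.8% lower. Of the called stems, 1117 higher and 1655 lower ones have only 1 model, and there stem and model hold the same counts. Of those stems, 244 higher and 212 lower ones were not called as a model, in a fit with the larger spread of models. Opposed models can be seen only in stems with at least 2 tested models, of which 728 were higher and 715 lower. Among these, models were called higher and none lower in 581 of the 728 higher stems, and lower and none higher in 574 of the 715 lower stems. No single model was called in 121 of the 728 higher and 115 of the 715 lower stems. Among the 7492 stems that were not called, 203 had models called higher, 277 had models called lower and 64 had both. The 64 stems lie among the 2709 uncalled stems with at least 2 tested models.

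In 111 of the 4152 stems with at least 2 tested models, models moved in opposite directions. Of these 111 stems, 7 had a model on each side with at least 50 CPM and separate libraries. Over all tested models, libraries were separate with the duct above in 23.2% and with the duct below in 28.6%. PB.2614 and PB.2036 had the largest opposed changes. In PB.2036, a stem of 2 models, PB.2036.2 stood at 344, 279 and 361 CPM in duct replicates 1 to 3, 716, 709 and 721 CPM in reservoir replicates 1 to 3, and 8.4, 9.08 and 8.18 CPM in carcass replicates 1 to 3. PB.2036.1 stood at 1.7, 1.16 and 1.93 CPM in the duct, 2.21, 2.66 and 8.38 CPM in the reservoir, and 90.2, 84.6 and 96.8 CPM in the carcass. Almost all counts of the stem fell on the one model in the duct, 99.5% ± 0.0594, and most fell on the other in the carcass, 91.3% ± 0.954. The log2 differences between duct and carcass were 5.26 ± 0.17 for PB.2036.2 (edgeR adjusted p = 1.17e-05) and -5.82 ± 0.58 for PB.2036.1 (edgeR adjusted p = 0.000309), while their sum rose by 1.84 ± 0.16 (edgeR adjusted p = 3.34e-05).

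PB.2614, a stem of 8 models, showed the same pattern with more spread in the duct. PB.2614.8 stood at 933, 511 and 292 CPM in duct replicates 1 to 3, 1996, 2251 and 2661 CPM in reservoir replicates 1 to 3, and 4.01, 2.14 and 2.64 CPM in carcass replicates 1 to 3. PB.2614.6 was at 0, 0.14 and 0 CPM in the duct, from 3 counts, at 1.24, 0 and 0 CPM in the reservoir, and at 56.9, 57.3 and 90.1 CPM in the carcass. The log2 difference between duct and carcass was 7.62 ± 0.57 for PB.2614.8 (edgeR adjusted p = 9.17e-05) and the edgeR adjusted p was 0.00298 for PB.2614.6. Summed over its models the stem rose by 2.89 ± 0.41 (log2, SE; edgeR adjusted p = 0.00055). Isoforms of a stem can share reads, so these values depend on how the reads were divided among them.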

How the data were processed

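Per the labels' protocols, RNA was extracted with TRIzol and sequenced as strand-specific paired-end Illumina libraries. Per the submitters' processing notes transcripts were quantified with Salmon 1.9, with a reference and settings not given in the sources used here. Estimated counts per transcript model were deposited by the authors as whole numbers, and rounding changed none. The authors also deposited TPM, of which 8 columns were used, for lengths and alternatives. The column of reservoir replicate 2 sums to 2000000, so it was treated as a score of unknown scale, as deposited, and left out.

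Counts of 40026 models were summed into 21808 ID stems, a trailing x kept. In edgeR 4.0.16 (R 4.3.3), filterByExpr by tissue, TMM scaling and a quasi-likelihood test with 1 coefficient per tissue were applied to all 9 libraries. The filter kept 12143 stems, with at least 99.923% of each library's counts. Scaling factors ran from 0.9477 to 1.034 (duct), 0.742 to 0.8174 (reservoir) and 1.087 to 1.652 (carcass). Standard errors and intervals were derived from the F statistic. Alternatives used DESeq2 1.42.0, limma 3.58.1, other scalings and filters, and left out single libraries.

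Named stems were the 2 largest rises and 2 largest falls under the rule given with them, and the 2 stems with the largest opposed changes of models. Gene lists and cell type markers, chosen by gene description, were not run because no source used here pairs IDs with genes. Libraries were grouped by label, but the comparison, its members and the lists were chosen with earlier results of these data known. No pair of replicates agreed within sampling noise. The scripts were tested on simulated data.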

Additional observations from a re-analysis of the deposited data

Results flagged for a closer look

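For the 6 named stems the fitted differences from the carcass were unequal in duct and reservoir. The difference between duct and reservoir was tested in the same edgeR fit (log2, SE). It was 2.16 ± 0.66 for PB.5197x, -1.76 ± 0.51 for PB.1828x, -1.96 ± 0.40 for PB.2614 and -1.09 ± 0.15 for PB.2036. For PB.5085 and PB.5298, which had 0 and 1 counts in the duct, the fitted differences of -6.22 ± 1.53 and -8.73 ± 2.13 depend on the offset of the fit. The edgeR adjusted p was 0.00865 for PB.2614 and 0.00161 for PB.2036, with each of the 3 duct libraries below each of the 3 reservoir libraries in both. It was 0.0459 for PB.5197x, 0.0379 for PB.1828x, 0.0307 for PB.5085 and 0.0194 for PB.5298. For these stems, in that order, the call was lost in 7, 6, 6 and 3 of the 9 fits that left out 1 library. For PB.2036 it was lost in 1 fit and for PB.2614 in none. Against the carcass, the duct difference of PB.5197x was 10.93 ± 0.97 and the reservoir difference 8.76 ± 0.89. For PB.1828x these were 10.79 ± 0.80 and 12.54 ± 0.84. Both effects share the carcass libraries. The stems were named by changes in these same duct libraries, so the p-values between duct and reservoir are not free of that choice.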

How the results depend on the processing

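With single libraries left out, edgeR called 4312 to 4758 stems (1775 to 2101 higher and 2516 to 2760 lower in the duct) and 4371 to 5563 models (1942 to 2438 higher, 2303 to 3194 lower). A filter of at least 10 CPM in 3 libraries, which tests fewer features, called 2527 stems (1208 higher, 1319 lower) and 3063 models (1525 higher, 1538 lower). Limma called 1010 stems higher and 4434 lower on log2(TPM + 1), and 1144 higher and 5830 lower on log2(TPM + 0.1). On models it called 1522 higher and 5898 lower on log2(TPM + 1), and 9766 in all, 7873 of them lower, on log2(TPM + 0.1). The test against a fold of 2 called 1566 models higher. The replicate block called 1968 stems higher and 2506 lower, and 2128 models lower. The correlations of same-numbered libraries' deviations were 0.0019, -0.103 and -0.103, so the numbers were not taken to pair the samples. Other than the number of features tested, the cause of these shifts was not tested.

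The number of stems holding 50% of the counts was higher by 4.33 in the duct, but lower, at -27.0, with the authors' TPM, and ran from -4.33 without carcass replicate 3 to 15.2 without carcass replicate 2. The median relative length of stems lower in the duct was 1.02 from the duct libraries alone. The number of stems high in carcass replicate 1 was 141 at 3 times and 36 at 10 times the other carcass libraries, settings added after the data were seen. Against the carcass, the 6 named stems kept their direction and their call under all alternatives. Sizes shifted more: with the trailing x dropped, which joins stems of equal number, the log2 fold change was 2.94 for PB.1828x and -6.45 for PB.5085, and limma on log2(TPM + 1) gave -7.99 for PB.5085 and -9.59 for PB.5298. Levels under the floor of 3 counts per library are limited by depth.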
